A study of Mus musculus with 27 samples.

Results

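Synaptotagmins, syntaxins, VAMPs, SNAP-25 relatives and syntaxin-binding proteins are the proteins that dock and fuse vesicles with membranes, in neurons and in hormone-secreting cells alike. They were described here as a family of 56 gene symbols among the 61346 gene names of 3 count tables. The family holds every row whose symbol starts with Syt, Stx, Vamp, Snap or Stxbp followed by a digit. Stxbp3a (progenitors and islets) and Stxbp3 (embryonic pancreas) never stand in the same table and are counted apart. The rule found symbols of 17 synaptotagmins, 15 syntaxins, 9 VAMPs, 5 Snap and 10 Stxbp rows, of which 49 symbols stand in all 3 tables. Of these, 53 stood in the progenitor counts, 50 in the islet counts and 54 in the counts of embryonic pancreas. Snap91, an adaptor of clathrin coats, was found by its name only, and so were Vamp9, Stxbp3b and the pseudogenes Vamp7-ps and Stxbp3-ps.

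The study asks what the SD domain of Nkx2.2, a homeodomain transcription factor of the ventral spinal cord and the endocrine pancreas, does in pancreas and neural tube. Neural progenitors were made from mouse embryonic stem cells differentiated towards motor neurons and collected on day 4. The pMN group (3 libraries) is the untreated line mES iNkx2.2. The iNkx2.2 group (3 libraries) is the same line given 1 µg/ml doxycycline late on day 3 for about 16 hours, which switches on FLAG-tagged wildtype Nkx2.2. The iSDmut group (2 libraries) is the line mES iSDmut given the same doxycycline, which switches on a FLAG-tagged copy carrying the mutations of the SDmut mice. No group is the iSDmut line without doxycycline or a line given doxycycline with no transgene, so line, drug and transgene cannot be told apart in every contrast. Islets came from 8-week animals, control (2 libraries) or beta-specific SD mutant (betaSDmut, 3 libraries), and from 4-week animals, control (2 libraries) or beta-specific knockout (betaKO, 2 libraries). Whole pancreas of the embryo at day E15.5 came from controls (3 libraries) and SDmut animals (4 libraries). The driver of the beta-specific change and the strain are not given in the sources used here, and islets hold other cell types that the mutation does not target. Nkx2.2 chromatin immunoprecipitation (ChIP) was done in MIN6, a mouse beta-cell line, in 2 replicates. The labels do not say that the progenitor or islet libraries came from separate cultures or animals, so p-values measure the spread between these samples, which may be technical.

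Total counts were 17757991 to 46840701 in progenitor libraries, 12398041 to 32385406 in islet libraries and 38447596 to 41840638 in embryonic libraries. CPM are counts scaled to library depth, here within each table with TMM factors (trimmed mean of M-values). Nkx2-2 stood at 5.40 to 11.6 CPM in pMN, 343 to 378 in iNkx2.2 and 245 to 248 in iSDmut libraries. In islets it stood at 76.2 and 103 CPM in 4-week controls and at 64.6 and 92.9 in betaKO, so a count over the whole gene does not separate the libraries labelled betaKO from their controls, and which part of the gene was deleted is not stated in the labels. Ins2, the main insulin gene, was at 0 counts in the 8 progenitor libraries, and Olig2, which defines motor neuron progenitors, was at 0.191 CPM or less in the 9 islet libraries.

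Membrane fusion in secretion is driven by a bundle of SNARE proteins: VAMP on the vesicle, and syntaxin and SNAP-25 on the plasma membrane. Stxbp5 and Stxbp5l (the tomosyns) and Stxbp6 (amisyn) carry VAMP-like coils that can occupy syntaxin and restrain fusion. Synaptotagmins with calcium-binding C2 domains, such as Syt1, Syt7 and Syt9, trigger fusion when calcium enters, in synapses and in beta cells, while relatives such as Syt4, Syt13 and Syt14 lack that calcium binding in part or in full.

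The authors joined genes to Nkx2.2 ChIP sites in MIN6 cells, and the 6 sites below belong to members of this family that changed in a mutant or induced group and have such a site. They are shown because each was joined by the authors to a gene called in at least 1 of the comparisons below. In the authors' deposited table of both islet effects, 2594 of 9971 genes (26%) and 15 of 37 listed members (40.5%) were joined to a site. Of the members called in betaSDmut islets below, 6 of 7 (85.7%) had a joined site, against 398 of 962 (41.4%) of all genes called there and listed in that table. For the betaKO comparison the joined members were 4 of 4, against 115 of 208 (55.3%) of all such called genes. How the authors chose the site of a gene is not given in the sources used here, and the table was made from islet genes, so a joined site is a neighbour and not a measured link. Each line gives the 101 bases centred on a site, 5′ to 3′ on the plus strand of GRCm38 (mm10). Capitals mark AAGTG or its reverse complement CACTT, the core letters bound by NK2 homeodomains, and GTTGC or its reverse complement GCAAC, letters of the X-box that RFX factors recognise, which were searched for after the sequences had been seen.
Stxbp5l, chr16:37425873-37425973: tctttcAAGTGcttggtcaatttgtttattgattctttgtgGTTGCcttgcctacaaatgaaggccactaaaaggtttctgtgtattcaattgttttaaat
Snap25, chr2:136716286-136716386: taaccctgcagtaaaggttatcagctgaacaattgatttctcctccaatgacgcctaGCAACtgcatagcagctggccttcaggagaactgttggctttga
Stxbp6, chr12:44859754-44859854: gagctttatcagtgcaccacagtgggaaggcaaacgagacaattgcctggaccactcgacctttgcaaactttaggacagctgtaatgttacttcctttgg
Syt9, chr7:107463133-107463233: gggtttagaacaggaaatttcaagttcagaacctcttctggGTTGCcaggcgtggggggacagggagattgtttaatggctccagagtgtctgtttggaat
Syt14, chr1:193021118-193021218: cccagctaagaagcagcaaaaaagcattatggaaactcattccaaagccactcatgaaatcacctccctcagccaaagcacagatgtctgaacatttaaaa
Syt1, chr10:109182731-109182831: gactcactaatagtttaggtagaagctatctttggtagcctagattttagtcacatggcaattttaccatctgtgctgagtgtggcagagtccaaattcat

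The GTTGC letters lay within 10 bases of the centre at Stxbp5l, Snap25 and Syt9, and AAGTG appeared in these 6 windows only at Stxbp5l, away from the centre. Over all 15 joined sites, GTTGC stood in 4 windows (26.7%) and AAGTG in 2 (13.3%). Over the authors' 6473 final sites, 2575 windows (39.8%) held GTTGC, 2193 of them (33.9% of all) within 10 bases of the centre. Of 6472 windows taken 5000 bases to the right of the sites, 11.2% held GTTGC and 2.39% held it within 10 bases of the centre. AAGTG stood in 22.7% of site windows and in 21.8% of the displaced windows. The sites as deposited thus carry X-box letters at their centres more often than the displaced windows do, and the NK2 core at nearly the same share. A match is a string of letters and not a bound site. The sites are named here by the ChIP target in the labels, which was not tested.

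The site joined to Snap25 was the one with the most reads among the 15, with 312 and 211 reads in the 2 ChIP replicates. It lies in an intron of Snap25, 2883 bases downstream of the gene start (chromosome 2, 136713453 to 136782428, plus strand). The Stxbp5l site had 234 and 157 reads and lies outside protein-coding genes, 40961 bases upstream of Stxbp5l (chromosome 16, 37114942 to 37384962, minus strand). By the mean of the authors' deposited log2 CPM values, Snap25 ranked at percentile 94.7 and Stxbp5l at 90.8 of the 6473 final sites. The site joined to Stxbp6 (150 and 95 reads) lies in an intron of that gene, 214905 bases into it. Intronic sites also stood in Syt9 (81 and 63 reads) and Syt14 (79 and 54). The Syt1 site was weak (58 and 52 reads, percentile 18.1) and lay 171799 bases upstream of the gene. The site nearest to a gene start was that of Stxbp5, 713 bases upstream, with 147 and 111 reads. No comparison with input was made, so these reads are not enrichments.

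**Figure D1:**
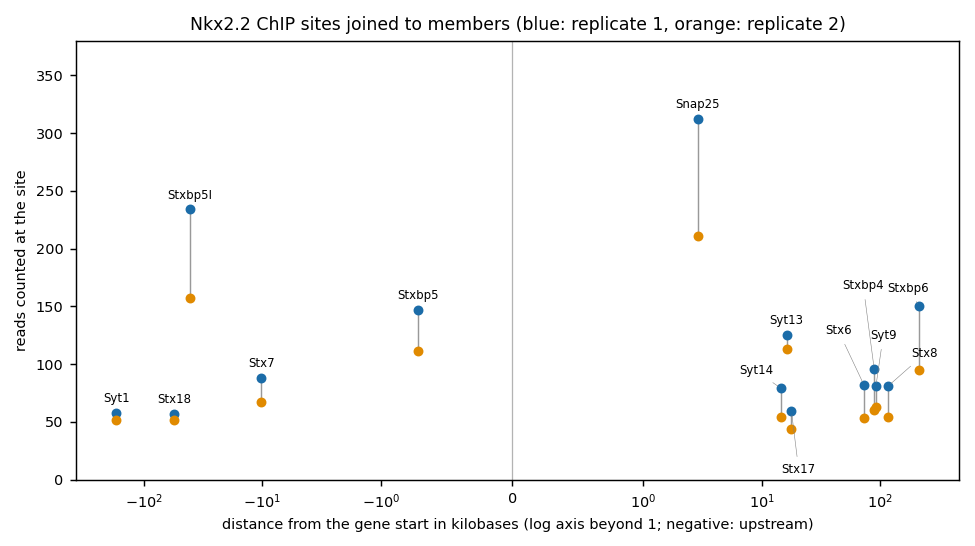
Reads counted at 14 Nkx2.2 ChIP sites joined to members (vertical axis, linear from 0) against the distance from the gene start in kilobases (horizontal axis, log beyond 1, negative upstream), with blue points for replicate 1 and orange for replicate 2. Snap25 and Stxbp5l stand above the others, and the Syt1 site lies far upstream with 58 and 52 reads.

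Pancreatic islets and motor neuron progenitors differed in the level of most members of the fusion machinery, as they did for most genes. They also differed in which members were highest. Levels are given first in FPKM, reads scaled by gene length and library depth, as the authors deposited them. The 2 tables were scaled separately and no library of the other tissue stands in either, so tissue and batch cannot be told apart. In the pMN progenitors the highest members were Vamp3 (82.9 ± 7.67 FPKM, SD, n = 3), Stx5a (28.6 ± 1.01), Snap23 (27.7 ± 3.27), Snap47 (27.0 ± 6.01), Stxbp2 (23.6 ± 7.26) and Stx12 (23.0 ± 0.438). Vamp3 and Snap23 serve constitutive fusion in most cells, Stx5a the Golgi and Stx12 endosomes. Among the 6 highest in the 4 control islet libraries were Syt13 (440 ± 15.4 FPKM), Vamp2 (121 ± 11.2), Vamp8 (91.3 ± 3.22), Snap25 (83.8 ± 5.65) and Syt7 (62.2 ± 5.37). No gene stands in both sets of 6.

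Of 51 members listed in both FPKM tables, 45 reached a mean of 1 FPKM in a tissue. In 31 of these every control islet library lay above every pMN library, in 5 every islet library lay below, and 9 overlapped. The 5 below include Vamp7, listed at 0 FPKM in islets and missing from the islet counts. They also include Stx8, which was not called on counts. Over all 12613 genes at that level the islet libraries lay above in 42.8% and below in 40.2%. The summed FPKM of the calcium-binding synaptotagmins was 8.26 to 13.2 in pMN and 120 to 137 in control islets. That of the other synaptotagmins was 19.1 to 25.8 in pMN and 513 to 528 in islets, most of it Syt13. The SNAP-25 family summed to 58.6 to 74.4 FPKM in pMN and 178 to 186 in islets, and the VAMPs to 140 to 156 and 286 to 300. The VAMP sum includes Vamp7, at 11.4 to 16.0 FPKM in pMN and 0 in islets. The syntaxins of the ER, Golgi and endosomes, which serve traffic in every cell, differed least of the groups given here, at 138 to 141 against 225 to 252.

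**Figure D2:**
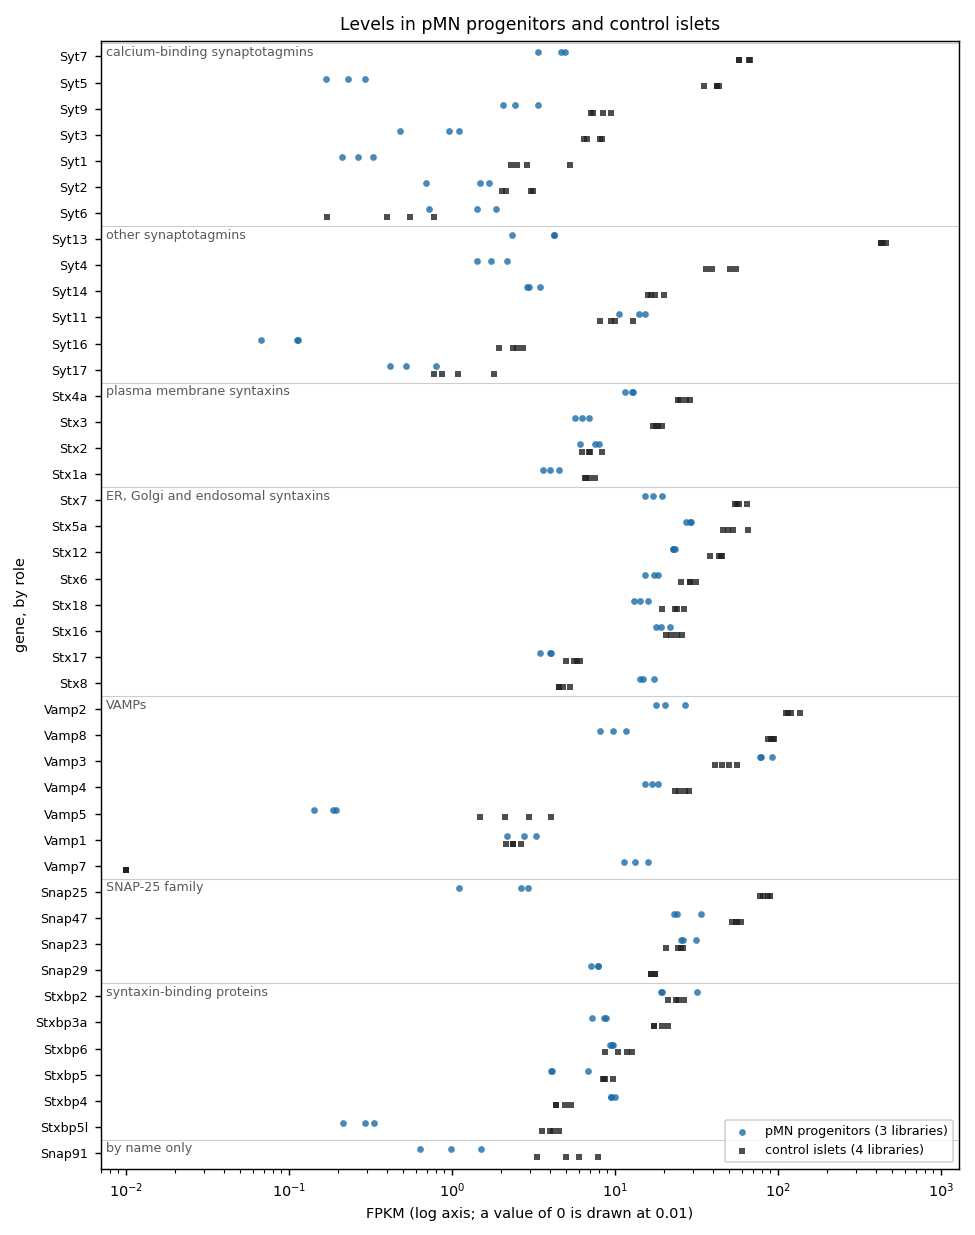
FPKM on a log axis (horizontal) of 43 members that reached 1 FPKM in a tissue (vertical axis, grouped by role), with blue circles for the 3 pMN libraries and dark squares for the 4 control islet libraries. Syt13, Syt5, Snap25, Syt4 and Stxbp5l lie well apart between the tissues, whereas Stx2, Stx16 and Snap23 overlap, and a value of 0 (Vamp7 in islets) is drawn at the left edge.

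A fit of the counts over 14500 genes gave the same picture with a test. It called 32 members higher and 6 lower in control islets among 47 tested, at an adjusted p under 0.05 (edgeR's quasi-likelihood test, Benjamini-Hochberg over all genes). The background is large: 84.1% of all genes were called, 43.4% higher and 40.7% lower. Being called does not by itself set the members apart from other genes. The median log2 fold change was 0.93 over the members and 0.07 over all genes. Scaling by total library size moved the split of all genes from 6289 higher and 5899 lower to 5015 (34.6%) and 7363 (50.8%), shifted the median of all genes by -0.50 and gave 27 members higher and 11 lower.

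Among the calcium-binding synaptotagmins, Syt5 was higher by 6.94 on the log2 scale (SE 0.17), from 0.170 to 0.292 FPKM in pMN to 35.4 to 43.3 FPKM in islets. Syt7, a slow high-affinity calcium sensor of dense-core granules, was higher by 3.61 (SE 0.17), Syt1 by 3.26 (SE 0.40), Syt3 by 3.15 and Syt9 by 1.51 (SE 0.18). Syt6 was lower by -1.61 (SE 0.47), a call that was lost without pMN replicate 3 (adjusted p = 0.0511). Syt10 had 0 counts in the 9 islet libraries, where a floor of 3 counts allows up to 0.242 CPM in the shallowest. Among the other synaptotagmins Syt13 was higher by 6.65 (SE 0.23), Syt4 by 4.65 (SE 0.25), Syt16 by 4.40 and Syt14 by 1.88. Syt15 was fitted 6.79 higher (SE 0.62), yet its pMN libraries held at most 0.00877 FPKM and its islet libraries 0.566 to 0.919, so the size depends on the prior count. Syt11, a vesicle protein without calcium binding, was lower by -0.48.

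Syntaxins of the plasma membrane were divided. Stx1a, the syntaxin of beta-cell granule release, stood at 3.64 to 4.53 FPKM in pMN and 6.52 to 7.52 in islets, and its counts did not pass the test (log2 fold change 0.31, adjusted p = 0.0556, edgeR). Total library size turned its sign (-0.19). Stx3 was higher by 1.29 and Stx4a by 0.81. Of the intracellular syntaxins, Stx7 was higher by 1.27, Stx17 by 0.93, Stx5a by 0.90, Stx12 and Stx18 by 0.33 each and Stx6 by 0.25. Stx8 is listed at 14.2 to 17.3 FPKM in pMN and 4.53 to 5.32 in islets but was not called on counts, where it stood at 18.0 to 22.3 CPM and 14.7 to 16.4 CPM.

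Of the VAMPs, Vamp5 was higher by 3.21, Vamp2 by 2.81 (SE 0.15), Vamp8 by 2.42 and Vamp4 by 1.28, whereas Vamp3 was lower by -1.63 (SE 0.11). Vamp2 is the vesicle SNARE of regulated secretion, and Vamp8 serves endosomes and zymogen granules. Vamp7 is listed at 0 FPKM in every islet library and has no row in the islet count table. A missing row and an absent transcript cannot be told apart. Its FPKM values enter the members counted as below and the VAMP sum given above, which carry this limit. In the SNAP-25 family Snap25 was higher by 5.23 (SE 0.25), Snap29 by 0.88 and Snap47 by 0.69, and Snap23 was lower by -0.62 (SE 0.10). Of the syntaxin-binding proteins Stxbp5l was higher by 5.30 (SE 0.19), Stxbp5 by 1.80, Stxbp3a by 1.16, Stxbp2 by 1.00 and Stxbp6 by 0.68, and Stxbp4 was lower by -1.24 (SE 0.13). Snap91 was higher by 2.44. The wider set of exocytosis partners, 67 genes tested that bind or serve this machinery, had 47 higher and 10 lower.

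Close relatives can stand in for each other, so their share was read within each library, where library depth cancels. The FPKM listed per CPM of a gene can differ between the tables, and this does not cancel. Vamp3 stood at 78.0 to 91.8 FPKM and 169 to 221 CPM in pMN. In control islets it stood at 41.2 to 56.4 FPKM and 38.7 to 45.0 CPM. The shares carry this limit between tissues. Snap25 made up 3.41% to 10.2% of the summed FPKM of Snap25 and Snap23 in pMN, and 75.2% to 80.8% in the 4 control islet libraries. Vamp2 made up 16.3% to 25.5% of Vamp2 and Vamp3 in pMN, and 67.1% to 76.9% in control islets. In these 2 pairs the ranges of the tissues did not overlap, and induction or mutation left each library on its own side. Stxbp5l made up 4.65% to 6.70% of the summed tomosyns in pMN, 22.4% to 30.4% in iNkx2.2 and 10.7% to 16.6% in iSDmut. In islets it made up 29.6% to 32.8% in the controls of both ages, 56.4% and 61.4% in betaKO and 56.0% to 60.1% in betaSDmut.

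**Figure D3:**
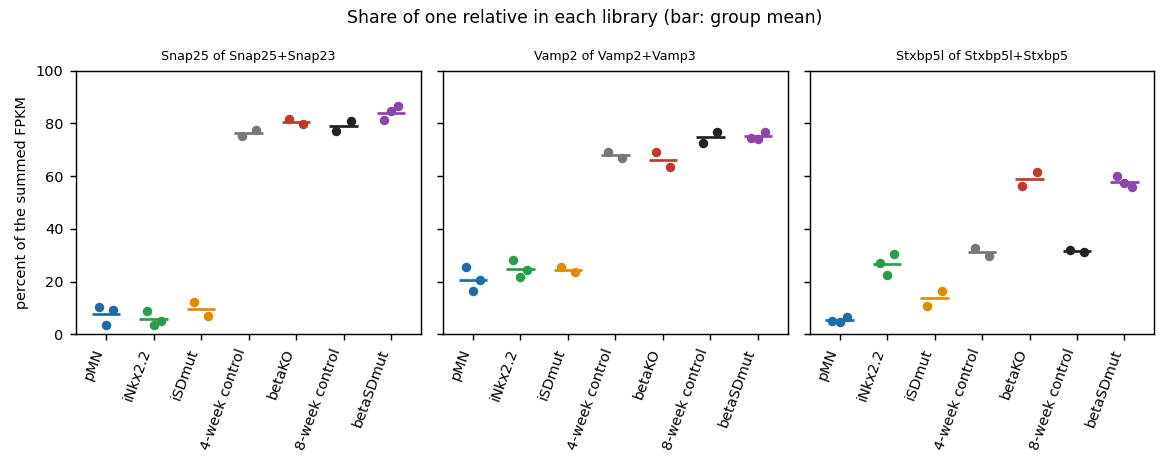
Percent of the summed FPKM that the named gene makes up among its close relatives (vertical axis, 0 to 100), in each library of 7 groups (horizontal axis), with bars at group means. Snap25 and Vamp2 are low in progenitors and high in islets, and Stxbp5l rises from pMN to iNkx2.2 and from control to mutant islets.

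In progenitors given doxycycline to switch on wildtype Nkx2.2, 5 members were higher and 1 was lower than in pMN, of 47 tested. The other 41 did not pass the test. This fit did not pair the same-numbered libraries, and the fit that pairs them, given below, called more members. Drug and transgene cannot be told apart here. Of 15653 genes in the fit 9.49% passed, 738 upward (4.71%) and 748 downward (4.78%; 917 and 412 under scaling by total library size, which shifted the median of all genes by 0.10). Stxbp5l, a tomosyn, stood at 1.39, 1.76 and 1.10 CPM in pMN and at 11.1, 8.15 and 9.32 CPM in iNkx2.2. Every induced library lay above every pMN library, and the log2 fold change was 2.76 (SE 0.25, adjusted p = 0.000347, edgeR). Syt1, the calcium sensor of fast synaptic release, stood at 1.5, 1.88 and 1.99 CPM in pMN and at 4.78, 5.01 and 5.74 in iNkx2.2. The groups did not overlap here either, with a log2 fold change of 1.52 (SE 0.21, adjusted p = 0.00318, edgeR). Per length, Stxbp5l reached 1.53 to 2.21 FPKM in iNkx2.2 against 3.57 to 4.54 in control islets, and Syt1 0.794 to 0.919 against 2.31 to 5.30. In CPM the same libraries held 8.15 to 11.1 against 32.1 to 43.6 of Stxbp5l, and 4.78 to 5.74 against 7.10 to 20.3 of Syt1. The size of the gap between tissues thus depends on the measure, and each measure was scaled within its own table.

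The remaining calls were of lowly expressed synaptotagmins and of amisyn. Syt17 stood at 1.00, 1.46 and 1.86 CPM in pMN and at 4.47, 4.43 and 4.49 in iNkx2.2 (log2 fold change 1.62, SE 0.30, adjusted p = 0.0116, edgeR). Syt5 stood at 0.779, 0.607 and 0.508 CPM in pMN and at 1.98, 2.28 and 1.47 in iNkx2.2 (log2 fold change 1.60, SE 0.33, adjusted p = 0.0194, edgeR). Syt6, the member that fell, stood at 7.85, 3.94 and 10.2 CPM in pMN and at 1.98, 1.70 and 2.04 in iNkx2.2, a log2 fold change of -1.94 (SE 0.35, adjusted p = 0.0108, edgeR). In each of these 3 genes, as in Stxbp5l and Syt1 above, the pMN and iNkx2.2 libraries did not overlap. The genes were picked as called in these same libraries, so the lack of overlap adds no support to the calls. Stxbp6 rose from 29.5 to 34.2 CPM in pMN to 50.4 to 60.7 in iNkx2.2 (log2 fold change 0.81, SE 0.20, adjusted p = 0.0379, edgeR). Of the fusion core, Stx1a (0.27), Vamp2 (0.22), Snap25 (-0.14), Syt4 (-0.51), Syt7 (0.29) and Syt9 (0.46) had log2 fold changes that did not pass, with adjusted p from 0.239 to 0.883 (edgeR). Syt13 stood at 20.9, 12.2 and 20.5 CPM in pMN and at 10.2, 6.62 and 9.13 in iNkx2.2, without overlap. It missed the threshold in this unpaired fit (log2 fold change -1.04, adjusted p = 0.0516, edgeR) and passed with the libraries paired (-1.03, adjusted p = 0.00072, edgeR).

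Same-numbered pMN and iNkx2.2 libraries deviated together. With the replicate number as a block 14 of 47 members were called, 10 higher and 4 lower, where 29.6% of all genes were called. The share of members called was near that of all genes, so the number called is no result about the family. The added members included Syt11 (0.58), Vamp1 (0.45), Stx7 (0.41) and Stx5a (0.23), all higher, and Syt13 (-1.03), Syt2 (-0.80) and Vamp4 (-0.25), all lower, with blocked adjusted p from 0.00072 to 0.0434 (edgeR). The calls of Stxbp5l and Syt1 held with each single library left out, but without iNkx2.2 replicate 1 or without pMN replicate 1 they were the only 2 members called. The Stxbp6 call was lost with any 1 of the 6 libraries left out, and the Syt5 call with 5 of them. The authors' deposited progenitor table lists only 4 members. For this comparison it calls Syt1 (1.53), Stxbp6 (0.86) and Syt11 (0.62) higher and Syt13 (-0.94) lower. It does not list Stxbp5l, Syt17, Syt5 or Syt6. Of 64 exocytosis partners tested by edgeR, 9 rose and 2 fell. Doc2b, a soluble calcium sensor of exocytosis, rose by 2.74, Rph3al by 1.63, Rab3b by 1.40, Ptprn, a dense-core granule membrane protein, by 1.37, Syp (synaptophysin) by 1.10, Pclo by 0.98, Rab3d by 0.97, Sv2a by 0.81 and Unc13b by 0.44, and Sv2b fell by 2.92 and Doc2a by 1.11. The neuron marker list (9 of 10 genes found) summed to 415 to 872 CPM in pMN, 801 to 1187 in iNkx2.2 and 1017 to 1172 in iSDmut. The Schwann and neural crest list summed to 65.7 to 135, 352 to 441 and 387 to 403 CPM, with Sox10 at 0.226 CPM or less. Olig2 stood at 200.2 to 284 CPM in pMN, at 2.82 to 10.5 in iNkx2.2, and stood at 25.6 to 87.1 in iSDmut. The part of these markers in the changes of the members was not tested, and in bulk libraries fewer cells of a type and less RNA per cell cannot be told apart.

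**Figure D4:**
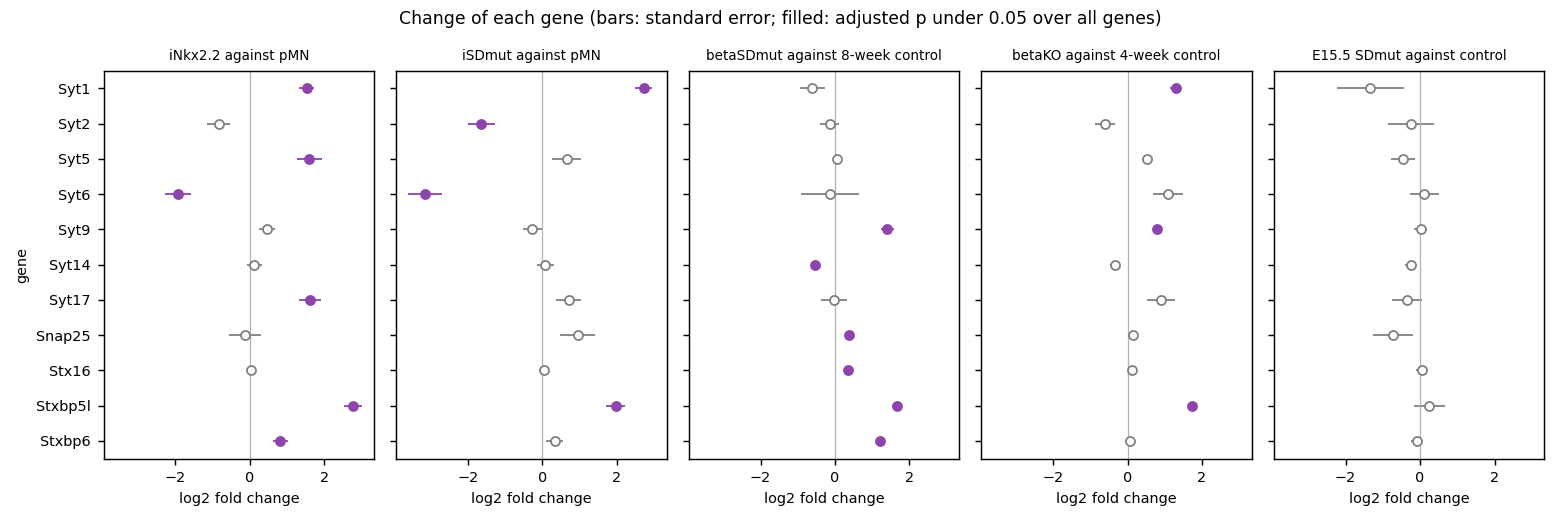
Log2 fold change (horizontal axis) of 11 members called in a mutant or induced group (vertical axis) in 5 comparisons, with bars for the standard error and filled points for an adjusted p under 0.05 over all genes. The fits drawn have no replicate block. Stxbp5l is filled and positive in the first 4 panels, and no point is filled at E15.5.

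With the mutant transgene Syt1 and Stxbp5l were again higher and Syt6 lower. In iSDmut against pMN, a comparison that shares its pMN libraries with the one above, 2 members rose, 2 fell and 43 did not pass, where 3.54% of all genes were called (297 or 1.9% higher and 257 or 1.64% lower, and 342 and 164 under scaling by total library size). Syt1 stood at 12 and 11.6 CPM in iSDmut, above every other progenitor library (log2 fold change 2.71, SE 0.23, adjusted p = 0.000703, edgeR). Stxbp5l stood at 5.32 and 5.65 CPM, between the pMN and the iNkx2.2 libraries (1.96, SE 0.26, adjusted p = 0.00635). Syt6 stood at 1.01 and 0.665 CPM, below every other progenitor library (-3.15, SE 0.45, adjusted p = 0.00788). These 3 calls held in all 11 alternative fits. Syt2, a synaptic calcium sensor, stood at 4.26 and 3.66 CPM against 14.0, 6.98 and 16.0 in pMN (-1.64, SE 0.36, adjusted p = 0.0424, edgeR). The Syt2 call was lost without either iSDmut library, without pMN replicate 1 or 3, under total library size and with only the 2 groups fitted. For iSDmut against pMN the authors' deposited table calls Syt1 (2.46) higher and Syt13 (-1.17) lower, of 4 members listed. Stxbp5l, Syt6 and Syt2 are not listed there. Among the partners Syp (0.92) and Unc13b (0.44) rose and Doc2a (-1.41) fell, of 64 tested.

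Other fixed members did not pass against pMN, with log2 fold changes of 0.94 for Snap25, 0.59 for Syt4, 0.21 for Vamp2, 0.16 for Stx1a, -0.28 for Syt9 and -0.97 for Syt13. With the replicate block Snap25 (0.91, adjusted p = 0.0343) and Syt13 (-0.90, adjusted p = 0.00553) did pass in edgeR, among 9 members called. The 2 iSDmut libraries differed from each other in several members. Syt4 stood at 15.7 and 3.95 CPM, Vamp8 at 2.97 and 13.2, Snap25 at 14.3 and 7.02, and Stxbp6 at 27.9 and 53.4. For Stxbp6 the first library lay below every pMN library and the second within the iNkx2.2 range, and for Syt4 the first lay above every other progenitor library. The first was run in lane 2 and the second in lane 3, and lane and library cannot be told apart.

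Wildtype and mutant induction were set against each other directly. No member was called in iSDmut against iNkx2.2 by edgeR, where 0.281% of all genes were, and 11 of 47 members had an unadjusted p under 0.05, against 1962 of all 15653 genes. DESeq2 called 1 member, Syt1, at 1.20 higher in iSDmut (adjusted p = 3.81e-05). In edgeR Syt1 was 1.19 higher (SE 0.21, adjusted p = 0.0651), Stxbp5l 0.80 lower (-0.80, SE 0.25, adjusted p = 0.24) and Stxbp6 was at -0.48 (adjusted p = 0.431). With the replicate block edgeR called 2 members higher, Syt1 (1.27, adjusted p = 0.00951) and Snap25 (1.10, adjusted p = 0.0393). Whether either passed in this contrast depended on the method. Of the calcium-binding synaptotagmins 6 of 7 had lower values in iSDmut and Syt1 alone had a higher value, with a median of -0.77 over the 7 and 0.01 over all genes, and the same 6 to 1 split under RLE factors and total library size. Syt9 (-0.73), Syt5 (-0.95), Syt6 (-1.21) and Syt2 (-0.80) had unadjusted p under 0.05 and did not pass the adjustment.

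In 8-week islets with the beta-specific SD mutation, 5 members rose and 2 fell of 46 tested, and 39 did not pass. Of all 15413 genes 7.94% were called, 628 higher (4.07%) and 596 lower (3.87%; 927 and 434 under scaling by total library size). Stxbp5l stood at 43.6 and 38 CPM in 8-week controls and at 150, 126 and 113 CPM in betaSDmut, a log2 fold change of 1.67 (SE 0.14, adjusted p = 0.00412, edgeR). Stxbp6 stood at 35 and 29.3 CPM in controls and at 71.2, 81.0 and 71.2 in betaSDmut (1.21, SE 0.11, adjusted p = 0.00474). So a tomosyn and the amisyn gene were higher in the same 3 libraries. Neither overlapped between groups, but both were picked as called in these same libraries, so this adds no support to the calls.

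Syt9, a calcium sensor reported in insulin granules, stood at 21 and 27.6 CPM in controls and at 54.1, 68.6 and 70.1 in betaSDmut (1.40, SE 0.17, adjusted p = 0.0111, edgeR). Snap25 moved less, from 143 and 152 CPM to 187, 194 and 192 (0.37, SE 0.07, adjusted p = 0.0373). Stx16, a syntaxin of the trans-Golgi, rose by 0.34 (adjusted p = 0.0456) and Syt14 fell by 0.53 (adjusted p = 0.0492, edgeR). The last 3 of these calls were the least firm, each lost in 5 to 7 of 11 alternative fits. Each of the 7 calls was lost when either 8-week control was left out, which leaves a lone control assumed to vary like the mutants, although the log2 fold change of Stxbp5l ranged only from 1.5 to 1.76 over its alternatives. The authors' deposited table of this comparison calls the same 7 members, 5 higher and 2 lower, of 42 listed.

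The fixed members that did not pass in betaSDmut included Stx1a (-0.51, adjusted p = 0.0755), Syt1 (-0.61), Syt4 (-0.33), Syt13 (-0.23), Vamp2 (-0.05) and Syt7 (0.18, adjusted p = 0.229, edgeR). Syt13, the most abundant member of islets, stood at 1244 and 1232 CPM in controls and at 1150, 1028 and 992 CPM in betaSDmut. By role, 5 of the 6 tested syntaxins of the plasma membrane had lower values and 7 of 8 intracellular syntaxins had higher values (8 of 8 under total library size). Over all genes 7844 of 15413 had higher values. Of these syntaxins only Stx16 was called, and some signs lay within their standard error, such as Stx7 (0.003, SE 0.07). The signs are a description and no shift by compartment was tested. Of 67 partners 3 rose, Sv2c by 3.27, Rab27b by 1.42 and Cadps2 by 1.17, and 4 fell. Those that fell (edgeR) were Rph3a by 3.66, Sv2a by 1.20, Cadps, a priming factor of dense-core granules, by 0.67 and Pclo by 0.60. The delta list (3 of 3 genes found) summed to 2077 to 3081 CPM in 8-week controls and to 4943 to 6514 in betaSDmut. Of it, Sst stood at 2934 and 1929 CPM in controls and at 3261, 4878 and 3220 in betaSDmut. Hhex stood at 12.6 to 17.0 and at 17.0 to 24.9 CPM, which overlap, so this sum does not speak for the whole list. The acinar list (10 of 10) summed to 7822 to 13024 and to 936 to 10581 CPM, which also overlap. The neuron list (10 of 10) summed to 283 to 296 and 424 to 445, and the beta list (7 of 7) to 236493 to 241731 and 199002 to 219475. Within the beta list Ins2, Mafa and Slc2a2 were lower, and G6pc2, Ins1 and Ucn3 overlapped. Iapp went the other way, from 2920 and 3086 CPM in controls to 4047 to 5276 in betaSDmut. Within the neuron list Isl1 stood at 106 and 105 CPM in controls and at 227, 200 and 196 in betaSDmut. Nefm and Mnx1 were also higher and Elavl3 was lower. Dcx, Elavl4, Nefl, Slc18a3, Stmn2 and Tubb3 overlapped between the groups, so the sum does not speak for the whole list. The part of these lists in the changes of the members was not tested.

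In the 4-week islets labelled betaKO, 3 members rose and 1 fell of 46 tested, where 1.56% of 14942 genes were called (121 or 0.81% higher and 112 or 0.75% lower, and 60 and 67 under scaling by total library size). Nkx2-2 counts do not separate these libraries from their controls, so each direction here is that of the label. Stxbp5l stood at 35.1 and 32.1 CPM in controls and at 102 and 122 in betaKO-labelled islets (1.73, SE 0.12, adjusted p = 0.0173, edgeR). Syt9 stood at 19.1 and 21.9 CPM in controls and at 35.7 and 34.7 (0.79, SE 0.12, adjusted p = 0.0483). Both genes moved the same way in betaSDmut at 8 weeks, in other libraries with other controls. Syt1 stood at 8.42 and 7.10 CPM in controls and at 19.4 and 18.7 (1.29, SE 0.15, adjusted p = 0.0335, edgeR).

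The calls in betaKO-labelled islets were fragile. Calls were lost in fits that left out a library, each of which leaves 1 library in a group. Over the alternative fits the log2 fold change ranged from 1.60 to 1.87 for Stxbp5l, 1.15 to 1.43 for Syt1 and 0.69 to 0.88 for Syt9. With the acinar marker score as a covariate no member was called, but no gene at all was called in that fit. It therefore cannot tell whether the member calls depend on acinar RNA. Marker lists of the islet cell types moved with the label. The alpha list (4 of 4 genes found) summed to 24964 to 29166 CPM in 4-week controls and to 50575 to 62403 in betaKO. The delta list (3 of 3) summed to 1887 to 3435 and to 5130 to 6423, and the acinar list (10 of 10) to 5821 to 10831 and to 14095 to 40205 CPM. The PP and epsilon list (2 of 2) summed to 2583 to 2751 and to 6607 to 8225, and the beta list (7 of 7) was lower, at 210344 to 214875 and 166734 to 178887 CPM. Within these lists Hhex (delta) overlapped between the groups. Iapp (beta) was higher, at 2842 and 3335 CPM in 4-week controls and 4089 and 3682 in betaKO. The neuron list (10 of 10) summed to 272 to 297 CPM in 4-week controls and to 363 to 401 in betaKO. Of it, Isl1 stood at 109 and 114 CPM in 4-week controls and at 205 and 152 in betaKO. Elavl3, Nefl and Slc18a3 were also higher, and Dcx, Elavl4, Mnx1, Nefm and Tubb3 overlapped. Stmn2 stood at 5.19 to 9.25 CPM in 4-week controls and at 14.3 to 21.1 in betaKO, and at 13.4 in the 8-week control library where Syt1 was 20.3 CPM. The part of these lists in the change of Syt1 and the other members was not tested. Of 67 partners none rose and 2 fell, Sv2a by 0.80 and Sytl4 (granuphilin, which docks insulin granules) by 0.76, and 17 had an unadjusted p under 0.05, against 2275 of all 14942 genes.

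The authors' deposited table of both islet effects lists 37 members. Its effects and its direct contrast add up as they do when both effects share 1 control group, whereas the fits here use controls of the same age, so the calls come from unlike control groups. In betaKO it calls Stxbp5l (1.61) and Syt5 (0.58) higher, and it calls neither Syt9 (0.70) nor Syt1 (0.84). In betaSDmut the authors' deposited table calls 8 higher, namely Stxbp5l (1.79), Syt9 (1.52), Stxbp6 (1.09), Snap91 (0.98), Snap25 (0.42), Stx17 (0.41), Stx16 (0.30) and Stxbp3a (0.30). Among those it calls lower there are Stx1a (-0.59), Stx2 (-0.36) and Stx3 (-0.28), which did not pass in edgeR against 8-week controls.

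**Figure D5:**
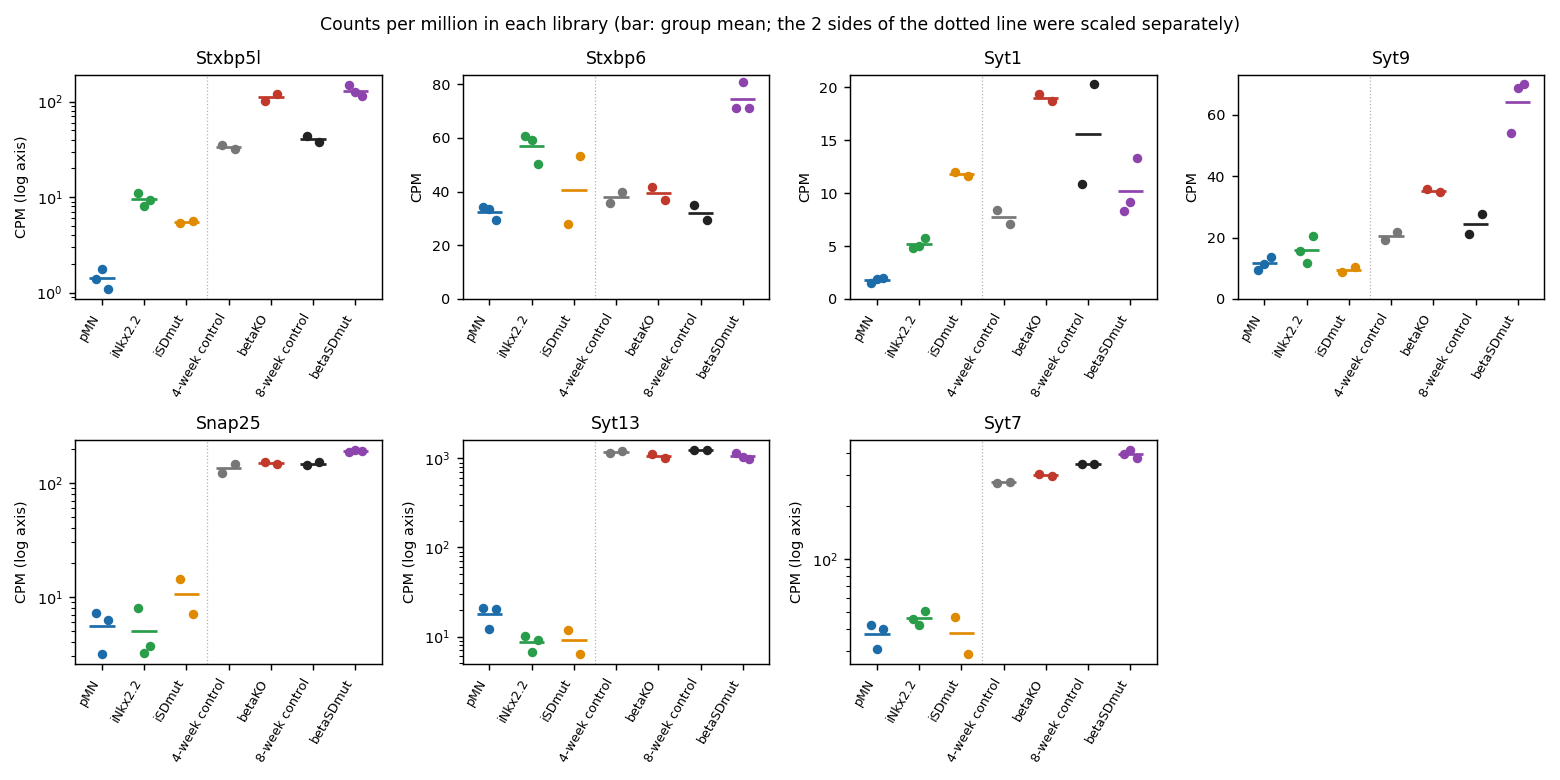
CPM of 7 members in each progenitor library (left of the dotted line) and islet library (right), on linear axes from 0 or, for Stxbp5l, Snap25, Syt13 and Syt7, on log axes, with bars at group means. Stxbp5l is above its controls in iNkx2.2, iSDmut, betaKO and betaSDmut, and Stxbp6 is high in betaSDmut at 71.2 to 81.0 but not in betaKO at 36.9 to 41.7.

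By edgeR, with controls of the same age, the change of 1 member differed between the islet mutants. Stxbp6 stood at 35.8 and 40.0 CPM in 4-week controls and at 41.7 and 36.9 in betaKO-labelled islets, which overlap, against its rise at 8 weeks. The difference of the betaSDmut and betaKO effects was 1.16 on the log2 scale (SE 0.17, adjusted p = 0.0216, edgeR). It was the only member of 47 called in that test, where 1.21% of 15995 genes were called (103 or 0.644% higher and 91 or 0.569% lower, and 168 and 58 under scaling by total library size, which shifted the median by 0.17). Age differs with genotype in this contrast, and the effect of age and the effect of genotype cannot be told apart. The call was lost without any of the 4 control libraries in turn, without betaKO replicate 2 or betaSDmut replicate 2 and with the acinar covariate. For Stxbp5l (difference -0.06, SE 0.20), Syt7 (0.05), Syt13 (-0.07), Snap25 (0.22), Vamp2 (0.23) and Stx1a (-0.49) no difference passed. Syt1 differed by -1.89 (SE 0.42, adjusted p = 0.0928 in edgeR and 0.00177 in DESeq2), Syt4 by -0.61 and Syt9 by 0.62 (adjusted p = 0.28, edgeR). DESeq2 called 5 members, Stxbp6, Syt1, Syt4, Stxbp3a and Stx6. Of the partners Cadps2 (1.06) was called higher and Sv2b (-1.59) and Sytl3 (-2.33) lower.

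The progenitor and islet comparisons share no library, so their calls can be set side by side. The calls used are those of the fits without a replicate block. Between iNkx2.2 against pMN and betaSDmut against control, 2 members were called in both, Stxbp5l and Stxbp6, which is 33.3% of the 6 and 28.6% of the 7 calls. Over all 12616 genes tested in both, 168 were called in both, 13.3% and 16.8% of the calls. Both members were higher on either side, although Nkx2.2 was added in progenitors and mutated in islets, while 70 of the 168 genes had the same sign. Against betaKO-labelled islets the shared members were Stxbp5l and Syt1 (33.3% of the 6 and 50% of the 4 calls), again higher in both, where 38 of all 12415 genes were shared (3.08% and 21% of the calls), 15 of them with the same sign. Over all members tested in both, 24 of 45 had the same sign in iNkx2.2 and betaSDmut (53.3%, against 45.5% of all genes).

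In whole pancreas at E15.5 no member was called among 50 tested by edgeR, where 0.00534% of 18723 genes (1 gene) were, and DESeq2 called no member either. An unadjusted p under 0.05 was reached by 2 of the 50 members and by 475 of all 18723 genes, so 2 members at that level are no result, and their values are given as a description. Syt13 stood at 119, 68.9 and 64.0 CPM in controls and at 47.9, 41.2, 64.4 and 52.7 in SDmut (log2 fold change -0.70, SE 0.24, unadjusted p = 0.0217, adjusted p = 1.0, edgeR). Syt7 stood at 47.6, 39.9 and 35.2 CPM in controls and at 25.7, 25.9, 36.9 and 29.5 in SDmut (-0.47, SE 0.16, unadjusted p = 0.0215). In both genes the groups overlapped in 1 SDmut library. The beta-cell list (7 of 7 genes) summed to 290 to 818 CPM in controls and to 54.8 to 107 in SDmut, and its part in these differences was not tested.

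Several neuronal members were highest in 1 control library at this age. Control replicate 2 held 23.7 CPM of Syt1, 12.4 of Syt4 and 15.1 of Snap25, against 1.86 to 8.45, 0.620 to 2.63 and 3.30 to 7.27 in the other 6 libraries. Its neuron list (10 of 10 genes) summed to 553 CPM, against 147 to 257 elsewhere. The muscle list (5 of 5) summed to 3897 CPM in control replicate 3 and 3787 in SDmut replicate 2, against 2.5 to 17.1 in the other 5 libraries. The log2 fold changes of Syt1 (-1.34), Syt4 (-1.77) and Snap25 (-0.73) turned to 0.46, 0.68 and 0.19 without control replicate 2. Stxbp5l, which moved in progenitors and islets, stood at 1.66 to 4.24 CPM in controls and 2.56 to 5.28 in SDmut, and Stxbp6 at 31.3 to 38.4 and 24.7 to 36.7. Stx1a (-0.30), Vamp2 (-0.04) and Syt9 (0.01) gave no call.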

How the data were processed

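Gene counts of 3 RNA-seq experiments were analysed as the authors deposited them, without strand or counter given in the sources used here. FPKM values are the authors', deposited per gene and library. The log2 fold changes and calls quoted as the authors' were made with edgeR and limma per the deposited readme, and their adjusted p-values for embryonic pancreas, made with DESeq2 per the same readme, were deposited too and are not quoted. Calls deposited by the authors are coded 1, 0 or -1 (unit "other"). Per the submitters' processing notes, STAR, Cufflinks, DESeq2, edgeR 3.20.9, limma 3.34.9 and bedtools 2.17.0 were used with mm10. ChIP values are read counts at GEM events and log2 CPM at 6473 final sites, deposited by the authors, whose rule for the final set is not stated.

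Counts were fitted with edgeR 4.0.16 in R 4.3.3 (filterByExpr, TMM, robust quasi-likelihood test), with Benjamini-Hochberg adjustment over all genes at 0.05. Standard errors were derived from the size of the change and the root of its F statistic. The progenitor comparisons shared 1 model of 3 groups, each islet comparison used its own age, the difference of effects used 9 libraries, and control islets against pMN used symbols found once in both count tables. Of the members, 47 of 53 progenitor rows, 47 of 50 islet rows and 50 of 54 embryonic rows passed the low-count filter over the whole table. FPKM values were compared without a test. Site positions were annotated with GENCODE M21, and sequences were read from the NCBI RefSeq copy of GRCm38. The scripts were tested on simulated data. 0 pairs of libraries held identical counts.

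The members and lists were chosen with earlier results of these data known. Named members were those called in any comparison, the 6 highest per tissue, the 5 largest tissue differences in each direction, and fixed genes of the fusion core; 2 members and a marker gene are counted but not reported here by name. Alternatives were RLE factors, total library size, no filter, DESeq2 1.42.0, each library left out, the replicate block, an acinar or muscle marker covariate, the title number as a factor (embryos), a single lane, only the 2 groups compared, 8-week controls only and 2 pseudocounts on FPKM. Same-numbered pMN and iNkx2.2 libraries had correlated deviations (0.535, 0.513 and 0.568), so the numbers, which come from the titles, were taken as pairs in the replicate block. The fits that gave the main calls had no block and ignored these pairs. The 4-week samples are labelled genomic DNA, although their columns hold gene counts. The ChIP input library was not used here.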

Additional observations from a re-analysis of the deposited data

Results flagged for a closer look

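Stxbp6 changed differently in the islet mutants by a test of the difference itself: the betaSDmut effect exceeded the betaKO effect by 1.16 on the log2 scale (SE 0.17, adjusted p = 0.0216, edgeR). All 3 betaSDmut libraries lay above both 8-week controls, whereas the betaKO-labelled libraries overlapped the 4-week controls. This is read from the libraries that gave the call and adds no support to it. Snap25 in embryonic SDmut pancreas had a single library apart from the others: replicate 2 stood at 7.27 CPM and the other 3 at 3.33 to 3.98, a gap of 0.834 of the range. That library also had the highest neuron list of the SDmut group (257 CPM, against 159 to 184) and a muscle list of 3787 CPM, against 4.66 to 17.1, and the part of either was not tested. Chance flags about 1 in 20 such groups. The same ratio was read for many members, of which Snap25 had the largest and Syt1 the next, at 0.822. A single flag among them is therefore no result and is given as a description.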

How the results depend on the processing

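The sign and call of most values held. Counts of members called moved by over 1.5 times, or from or to 0, as follows; the cause was not tested except that fits without a library have fewer samples. For iNkx2.2 against pMN, 6 calls became 10 with DESeq2 and 14 with the replicate block (pairs taken from the titles), and 2 to 6 without single libraries. For iSDmut against pMN, 4 became 9 with the replicate block (correlations of same-numbered libraries 0.343 and 0.0503, so not taken as pairs) and 3 to 5 without single libraries. For iSDmut against iNkx2.2, 0 became 1 with no filter, 1 with DESeq2, 2 with the block and up to 5 without single libraries (5 without iSDmut replicate 2). For betaSDmut, 7 became 4 with the block (correlations -0.0839 and -0.126) and 0 to 11 without single libraries. For betaKO, 4 became 2 with total library size, 2 with the block (correlations -0.039) and 0 with the acinar covariate, and 0 to 2 without single libraries. For the difference of islet effects, 1 became 5 with DESeq2, 0 with the acinar covariate and 0 to 2 without single libraries. The count for control islets against pMN stayed between 35 and 40.

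Among all genes, the block gave 4629 calls against 1486 for iNkx2.2 against pMN, 2626 against 554 for iSDmut against pMN, 528 against 44 for iSDmut against iNkx2.2 and 757 against 1224 for betaSDmut; DESeq2 gave 2271, 1380, 461, 2041, 770 (betaKO, against 233), 649 (difference, against 194) and 25 (embryonic, against 1). Lane 2 alone gave 960 for iNkx2.2, the 2 groups alone 295 and 13 for iSDmut against pMN and iNkx2.2, no filter 145 for the latter and 372 for betaKO, total library size 127 for betaKO and 2 at E15.5, the acinar covariate 0 for betaKO, and the muscle covariate 4 and the title number 0 at E15.5. Without single libraries the lowest counts were 412, 171, 2, 37, 4, 0 and 0 in the same order of comparisons, and the highest for betaSDmut was 2765 (without betaSDmut replicate 1).

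Signs turned in uncalled members. By setting, the turned log2 fold changes were 0.16 for Snap25 in lane 2 only (iNkx2.2), 0.0019, 0.066, 0.018, 0.00305, 0.043 and 0.017 for Syt7 in iSDmut against pMN under RLE factors, total library size, no filter, DESeq2, the replicate block and the 2 groups alone, 0.037 for Vamp2 in betaSDmut, 0.10 for Syt13 in the difference, -0.0033 for Syt9 at E15.5 and -0.19 for Stx1a between tissues, all under total library size, -0.018 for Syt7 in the difference with the acinar covariate, and 0.16 for Syt4 at E15.5 without control 2 and SDmut 2 (0.21 for Syt9 and -0.17 for Vamp2), a setting that was added after the data were seen. Without single libraries the log2 fold changes that turned ranged as follows: iNkx2.2 Snap25 -0.67 to 0.093; iSDmut against pMN Stx1a -0.10 to 0.39, Syt4 -0.71 to 1.28 and Syt7 -0.39 to 0.31. Against iNkx2.2 they were Stx1a -0.37 to 0.13, Syt13 -0.45 to 0.46, Syt4 -0.20 to 1.79, Syt7 -0.68 to 0.015 and Vamp2 -0.074 to 0.059. In islets they were Vamp2 -0.14 to 0.044 in betaSDmut, Stx1a -0.13 to 0.098 in betaKO and Syt13 -0.15 to 0.016 in the difference. At E15.5 they were Snap25 -1.10 to 0.19, Syt1 -2.07 to 0.46, Syt4 -2.29 to 0.68, Syt9 -0.068 to 0.18 and Vamp2 -0.15 to 0.047. Members under about 1 CPM rest on few reads.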

Other observations

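Counting joined sites too, 14 members held at least 1 final Nkx2.2 site within the gene. Snap25 held 3 and Stxbp6 held 4, all intronic. Among members with no joined site, Snap91 held an intronic site at percentile 96.7 of the final sites by the authors' log2 CPM, and Syt16 held 2, at percentiles 83.6 and 69.1. Syt7 held 1 in an intron at position 10435088 of chromosome 19 (mm10), at percentile 58.2.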
